A study of Homo sapiens with 6 samples.

Results

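The genes described here encode the lysosomal proton pump (the vacuolar H+-ATPase, or V-ATPase), the cathepsins and the lysosome-associated membrane proteins (LAMPs). They were chosen by symbol alone, as every gene listed in the count tables whose name is that of a V0 or V1 subunit, ATP6AP1 or ATP6AP2, a cathepsin (CTS and 1 letter), or LAMP1 to LAMP5. This gave 39 of 32029 genes, 22 for the V-ATPase, 14 cathepsins and 3 LAMPs. Of these, 32 had 10 or more reads in at least 3 of the 6 cultures and were tested, 19 for the V-ATPase, 10 cathepsins and 3 LAMPs. RNA-seq was performed on total RNA from SW480, an established human colorectal cancer cell line, 48 h after transfection with an siRNA. In 3 cultures the siRNA was siNC, the negative control, with the genotype given as WT, and in the other 3 it was siZEB1, with the genotype given as ZEB1 knockdown. ZEB1 is a zinc finger repressor that binds E-box sequences and drives epithelial-mesenchymal transition. All cultures came from 1 cell line and 1 time point, the sequence and number of the siRNAs are not given in the sources used here, so effects of an siRNA on other transcripts and loss of ZEB1 cannot be told apart by this design. The study describes the samples of a group as biological replicates and independent, and p-values measure the spread between these 6 cultures.

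The lysosome breaks down proteins, lipids and sugars in an acidic lumen. The V-ATPase makes that lumen acidic: its cytosolic V1 sector hydrolyses ATP, and the rotation this drives lets the membrane-embedded V0 sector carry protons inward. The cathepsins are the proteases that work in the lumen, most of them cysteine proteases that are made as inactive precursors and mature at acidic pH, and LAMP1 and LAMP2 are heavily glycosylated proteins that line the lysosomal membrane. Many of these genes carry in their promoters the CLEAR element, an E-box recognized by TFEB, TFE3 and MITF, and tumour cells are known to secrete cathepsins during invasion.

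ZEB1 (ENSG00000148516) had 1247, 1276 and 908 reads with siNC against 136, 132 and 162 with siZEB1. Its log2 fold change was -2.85, with a standard error (SE) of 0.11 and an adjusted p of 3.49e-12 by edgeR's quasi-likelihood test with Benjamini-Hochberg adjustment over 15187 genes, and every p-value given for a gene is of this kind. The libraries held 19040636 to 22357633 counted reads each. Of the markers for the cell type, KRT8 had 63244 to 76451 reads per culture and KRT18 had 25333 to 31826, whereas CDH17 and LGALS4, markers of differentiated colonic epithelium, had at most 9 reads in any culture. Other epithelial markers on the list differed between the groups by more than most of the lysosomal genes did: the log2 fold change was 3.05 for EPCAM (adjusted p = 1.58e-15), 2.34 for VIL1 (adjusted p = 1.3e-10), 1.63 for KRT19 (adjusted p = 8.04e-12) and -1.30 for CDX2 (adjusted p = 6.63e-10), and the part of this shift in the lysosomal results was not tested. Because macrophages are rich in lysosomes, their markers were also read, and 9 of 10 are listed. Their summed level was 1.19 to 1.61 CPM (reads scaled to a common library total after TMM normalization) in the siNC cultures and 1.92 to 3.19 CPM in the siZEB1 cultures. AIF1 and TYROBP had 0 or 1 read in each culture. So did CD68, but 81.7% of its exonic bases are shared on the same strand with AC016876.2, so its level is uncertain. CD14, the only marker of this list tested, had 8, 14 and 8 reads with siNC and 15, 12 and 17 with siZEB1 (log2 fold change 0.69, SE 0.38, adjusted p = 0.167). CSF1R had 5, 2 and 3 reads with siNC and 11, 6 and 10 with siZEB1, without overlap in CPM. Of all genes tested, 49.2% had groups that did not overlap. LYZ was lower in the mean, with 7, 5 and 9 reads with siNC and 2, 4 and 6 with siZEB1, and overlapped. CD163, FCER1G and ITGAM had at most 11 reads in any culture, were higher in the mean and overlapped. In bulk RNA, fewer cells of a type and less RNA per cell cannot be told apart.

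After siZEB1, most V-ATPase genes were higher, while the cathepsins that changed were lower. Of the 19 V-ATPase genes tested, 13 were called higher and 1 lower at an adjusted p under 0.05, with a median log2 fold change of 0.28. The 13 include ATP6V0A4, which passed the filter only through its siZEB1 cultures, and with 10 or more reads asked of every culture 12 were called higher. Of the 10 cathepsins tested, 0 were called higher and 4 lower, with a median of -0.14, and 0 of the 3 LAMPs were called by edgeR's quasi-likelihood test. At an unadjusted p under 0.05, 0 cathepsins were higher and 5 lower, and 0 LAMPs were higher or lower, against 22.9% of all genes tested higher and 24.8% lower. DESeq2's Wald test called the same numbers as edgeR in each of these groups. Among all 15187 genes tested, 18.8% were called higher and 21% lower, with a median log2 fold change of -0.0053. Changes were small. At a fold above 1.5 and an unadjusted p under 0.05, 2 of the 32 genes were higher (7.16% of all genes tested were) and 1 was lower (9.37%), and at an unadjusted p under 0.001 these were 0 (4.48%) and 1 (6.61%). The higher ones were ATP6V0A4 and ATP6V1C2, both with few reads, and the lower one was CTSS. The 4 genes called lower among the cathepsins were all cysteine proteases, as were 8 of the 10 cathepsins tested. The share of genes called, 39.8% over all genes, was 49.5% among the 7377 genes with a mean of 20 CPM or more (24.3% higher and 25.1% lower), so the counts were also read at that level. There, 11 of 16 V-ATPase genes were higher and 1 was lower, and 2 of 6 cathepsins were lower.

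**Figure D1:**
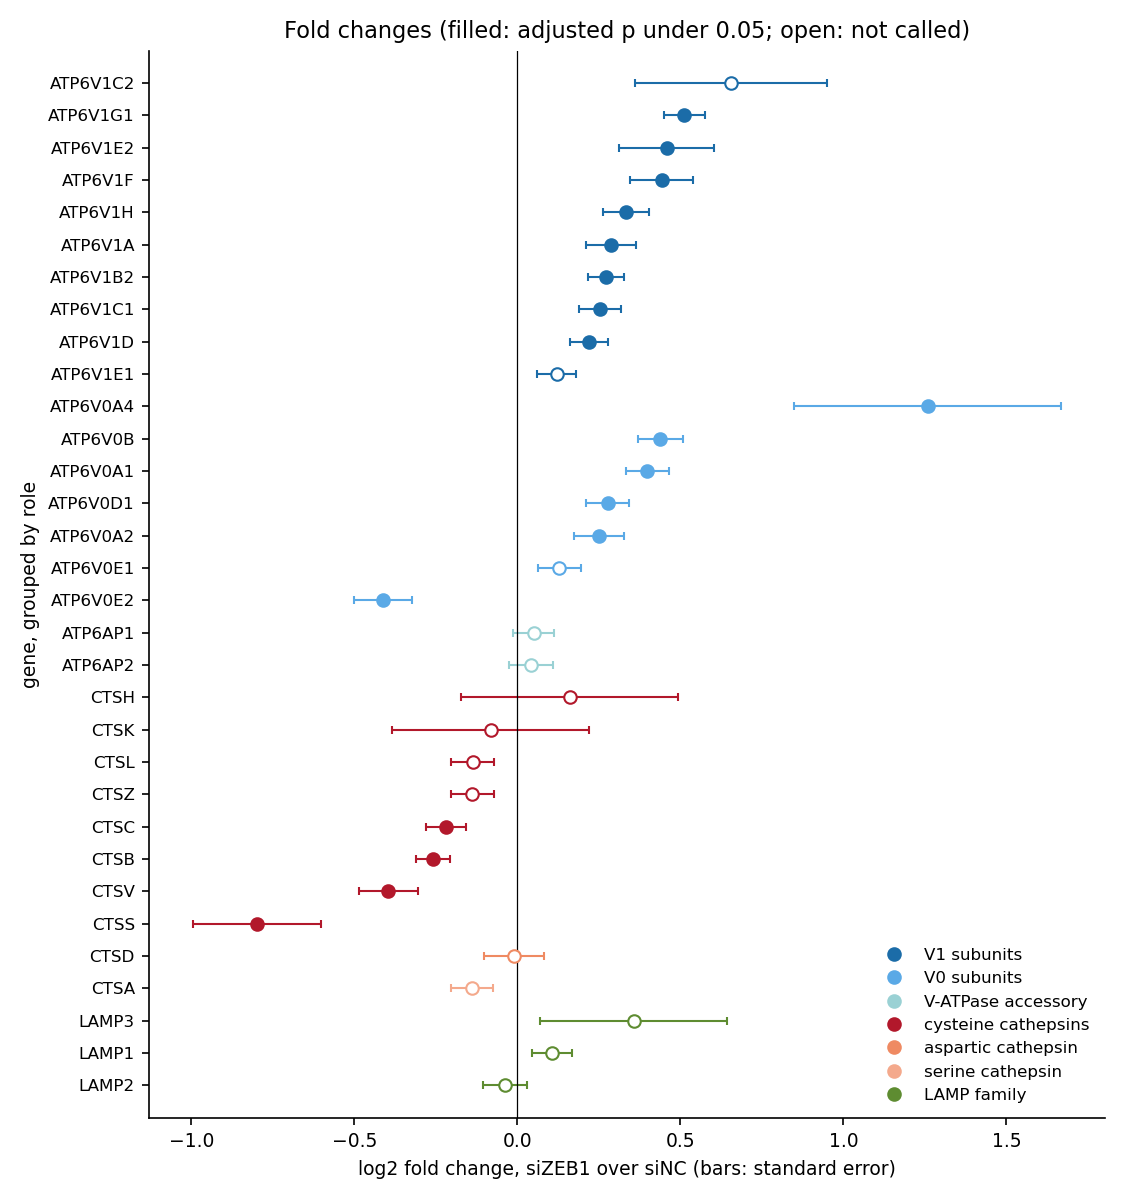
Log2 fold change of siZEB1 over siNC (x axis, with its standard error as the bar) for each of the 32 genes tested, grouped by role on the y axis, filled where the adjusted p was under 0.05. The V1 subunits all lie above 0 (0.12 to 0.66), the V0 subunits lie above 0 except ATP6V0E2 (-0.41), and the cathepsins lie below 0 except CTSH (0.16).

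Summed over the 22 V-ATPase genes, the level was 1654, 1651 and 1672 CPM in the siNC cultures and 1958, 2030 and 1940 CPM in the siZEB1 cultures. The lowest siZEB1 culture was above the highest siNC culture, and the mean differed by 19.1%. The 14 cathepsins summed to 1244, 1267 and 1312 CPM with siNC and to 1120, 1142 and 1061 CPM with siZEB1, a difference of -13.1% with no overlap between the groups. The LAMPs summed to 527, 510 and 522 CPM with siNC and to 536, 543 and 532 CPM with siZEB1, a smaller difference of 3.39% in which the groups did not overlap either, although they did for each LAMP gene alone. No test was made on these sums, which a few abundant genes dominate: CTSB alone made up 44.2% ± 0.186 of the cathepsin sum with siNC and 42.5% ± 0.629 with siZEB1 (SD, n = 3 each).

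**Figure D2:**
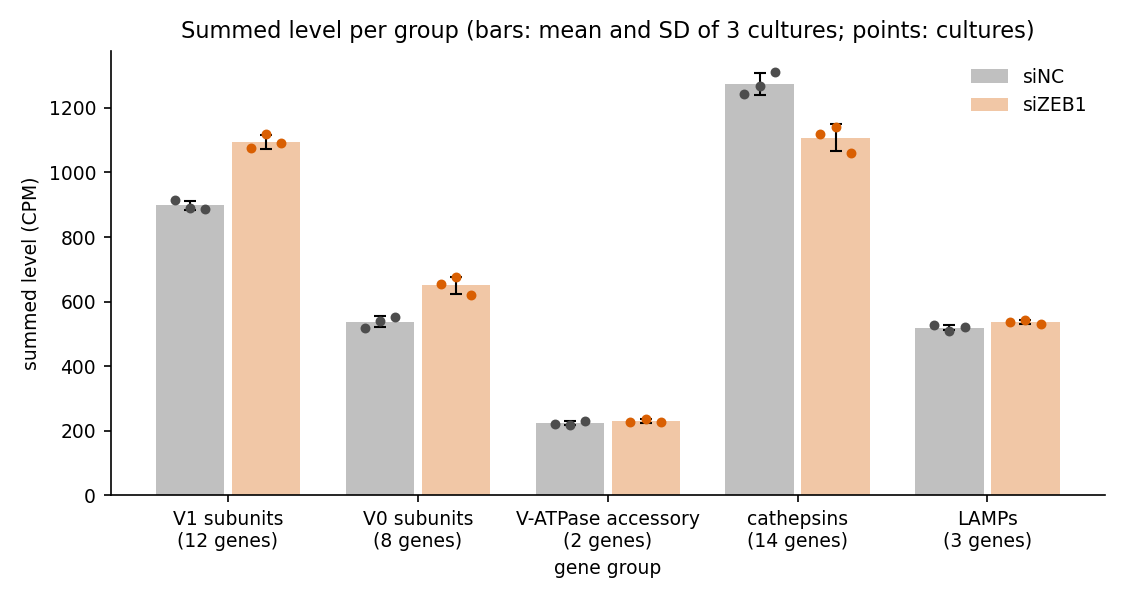
Summed level in CPM (y axis, from 0) of each gene group (x axis) with siNC (gray) and siZEB1 (orange), where bars are the mean, error bars the SD of 3 cultures and points the cultures. Both V-ATPase sectors were above their controls in every siZEB1 culture (V1 from 898 to 1095 CPM, V0 from 538 to 650 CPM in the mean), the cathepsins were below theirs (1274 to 1107 CPM), and the LAMPs and accessory proteins stayed within 3.39% of theirs.

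The promoters of these genes are shown because many of these genes are known to carry the CLEAR element. Promoter sequences were taken from RefSeq on GRCh38.p14, as the 250 bases before and 50 bases after each start site, and 27 of the 39 genes matched. These 27 include CTSE, CTSF, CTSG, ATP6V0C, ATP6V1B1 and ATP6V1G2, which were below the filter on reads and not tested. The tested genes set beside them below hold no such genes. On both strands, the full element, which is CACGTG with GT before it and AC after it, was found in 1 of the 27 genes, ATP6V1G1 (3.70%), against 0.886% of 10499 tested genes with a promoter. Its core CACGTG, which reads the same on both strands and lies within the full element, was found in 8 of 27 genes (29.6%), against 12.6% of the tested genes. In the stretches that follow, each on the strand of its gene and with CACGTG in capitals, the core began between positions -68 and -25 from the start site in the V-ATPase genes and in CTSA and CTSD, and LAMP1 held 6 copies from position -192 to -1.
ATP6V1G1, chr9:114587696-114587731, plus strand: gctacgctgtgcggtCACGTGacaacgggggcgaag
ATP6V0B, chr1:43974888-43974941, plus strand: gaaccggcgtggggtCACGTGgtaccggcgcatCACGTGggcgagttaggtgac
ATP6V0D1, chr16:67481196-67481231, minus strand: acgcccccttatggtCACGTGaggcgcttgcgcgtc
ATP6V0E2, chr7:149872881-149872916, plus strand: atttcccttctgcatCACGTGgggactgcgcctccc
CTSA, chr20:45891278-45891330, plus strand: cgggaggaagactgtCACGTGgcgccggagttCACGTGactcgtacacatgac
CTSD, chr11:1763954-1763989, minus strand: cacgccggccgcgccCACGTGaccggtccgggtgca
LAMP1, chr13:113297032-113297258, plus strand: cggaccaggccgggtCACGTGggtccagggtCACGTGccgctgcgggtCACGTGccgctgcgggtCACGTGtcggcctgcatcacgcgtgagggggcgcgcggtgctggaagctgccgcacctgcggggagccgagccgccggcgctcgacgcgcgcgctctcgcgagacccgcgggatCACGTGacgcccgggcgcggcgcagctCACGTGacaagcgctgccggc
The eighth gene with the core was CTSF, which was below the filter on reads. Among tested genes with a promoter, 3 of 8 called higher held the core, as did 1 of 3 called lower and 3 of 10 not called. These counts and those of the ZEB1 E-box below are too small to compare the directions, which was not tested. Of the genes called, ATP6V1A, ATP6V1B2, ATP6V1C1, ATP6V1E2, ATP6V1H, CTSB and CTSS had no matched promoter. The E-box of ZEB1, CAGGTG or its reverse complement CACCTG, was found in 12 of 27 genes (44.4%), against 24.3% of the tested genes. It was present in 3 of 8 genes called higher, 1 of 3 called lower and 6 of 10 not called. The 12 also include ATP6V0C and ATP6V1B1, which were not tested. A match of letters is not a measured binding site, and no binding was measured in these data.

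**Figure D3:**
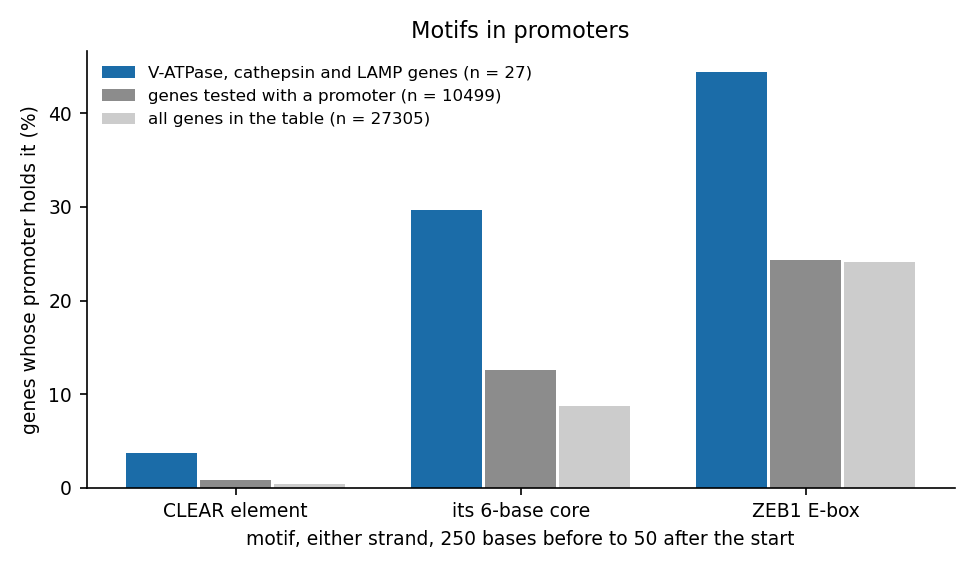
Percentage of genes (y axis) whose promoter, from 250 bases before to 50 after the start, holds each motif on either strand (x axis), for the 27 V-ATPase, cathepsin and LAMP genes with a promoter, the 10499 tested genes with one and all 27305 genes in the table. The V-ATPase, cathepsin and LAMP genes are the tallest bar for each motif, at 3.70%, 29.6% and 44.4%.

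The V1 sector is the part of the pump that hydrolyses ATP. All 10 of its tested genes had higher mean levels with siZEB1, and 8 were called higher, against 18.8% of all genes tested. The levels of the groups did not overlap in any of the 10, where 49.2% of all genes tested had groups that did not overlap. ATP6V1G1 (ENSG00000136888, chr9:114587746-114598373), a subunit of the peripheral stalks, stood at 115, 106 and 117 CPM with siNC and at 161, 167 and 154 CPM with siZEB1. Each siZEB1 culture was well above each control, a rise of 0.51 on the log2 scale (SE 0.064, adjusted p = 5.98e-06) and the V-ATPase change with the lowest adjusted p. Its promoter holds the full CLEAR element printed above.

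ATP6V1F (ENSG00000128524, chr7:128862826-128865844), a subunit of the central rotor, had 20.1, 23.2 and 25.3 CPM with siNC and 33.6, 31.7 and 27.7 CPM with siZEB1. The groups were separate but the gap was narrow (log2 fold change 0.44, SE 0.097, adjusted p = 0.00149). KCP on the opposite strand overlaps 23.7% of its exonic bases, and the strand setting of the count is not given in the sources used here. ATP6V1H, which regulates the ATPase, rose from 40.7, 42.4 and 38.4 CPM to 51.0, 52.1 and 50.2 CPM (log2 fold change 0.33, SE 0.071, adjusted p = 0.00108). The subunits of the ATP-binding head both rose. ATP6V1B2 rose by 0.27 (SE 0.054, adjusted p = 0.000625) from 244 ± 4.52 to 294 ± 6.90 CPM and ATP6V1A by 0.29 (SE 0.078, adjusted p = 0.00705) from 99.2 ± 8.85 to 121 ± 10.5 CPM (SD, n = 3 each). ATP6V1C1, a subunit that joins the stalks, and ATP6V1D, a rotor subunit, rose by 0.25 (adjusted p = 0.00457) and 0.22 (adjusted p = 0.00592).

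The E subunit of the stalks has a widely expressed gene, ATP6V1E1, and a second gene, ATP6V1E2, best known from testis. ATP6V1E1 had 109 ± 1.57 CPM with siNC and 119 ± 4.19 CPM with siZEB1 (SD, n = 3 each), and its log2 fold change of 0.12 (SE 0.061) did not pass the test (adjusted p = 0.13). ATP6V1E2 had 88, 109 and 82 reads with siNC and 129, 108 and 111 reads with siZEB1, and rose by 0.46 (SE 0.14, adjusted p = 0.0178). That call was lost without siNC culture 1 (adjusted p = 0.0609) and without siZEB1 culture 1 (adjusted p = 0.101). Per length, ATP6V1E2 made up 2.40% ± 0.233 of the E subunit RPKM with siNC and 3.03% ± 0.420 with siZEB1 (SD, n = 3 each), so ATP6V1E1 supplied nearly all of it in both groups.

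ATP6V1C2, the second gene for the C subunit, had 22, 18 and 13 reads with siNC and 27, 22 and 27 with siZEB1, and its change of 0.66 (SE 0.30) did not pass the test (adjusted p = 0.0884). Of the genes for V1 isoforms of specialized tissues, ATP6V1B1, known from kidney and inner ear, had at most 1 read in any culture, and ATP6V1G2, known from brain, had 3 to 8 reads. Both were below the filter and were not tested.

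The V0 sector forms the membrane channel. Of its 7 tested genes, 5 were called higher, 1 lower and 1 was not called. Of all genes tested, 18.8% were called higher and 21% lower. The 5 include ATP6V0A4, which passed the filter only through its siZEB1 cultures. ATP6V0B (ENSG00000117410, chr1:43974487-43978295), a subunit of the proton-carrying ring, had 126, 132 and 146 CPM with siNC and 187, 189 and 169 CPM with siZEB1. The siZEB1 cultures were all above the controls (log2 fold change 0.44, SE 0.069, adjusted p = 7.26e-05). Its promoter has a pair of the CACGTG cores printed above. ATP6V0D1, which couples the ring to the rotor, rose by 0.28 (SE 0.065, adjusted p = 0.0026) from 102 ± 5.38 to 123 ± 5.25 CPM (SD, n = 3 each).

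The a subunit, which forms the path for protons across the membrane and directs the pump to a compartment, is encoded by several genes. ATP6V0A1 had 86.1, 92.2 and 81.5 CPM with siNC and 116, 111 and 116 CPM with siZEB1, and rose by 0.40 (SE 0.066, adjusted p = 0.00012). ATP6V0A2, known for its place in the Golgi and endosomes, rose by 0.25 (SE 0.076, adjusted p = 0.0147), a call that was lost without siNC culture 3 (adjusted p = 0.0516). ATP6V0A4, known from kidney, had 11, 9 and 6 reads with siNC and 17, 28 and 12 reads with siZEB1. It passed the filter only through the siZEB1 cultures, and its rise of 1.26 (SE 0.41, adjusted p = 0.021) was not called without siNC culture 2 (adjusted p = 0.0584) or siZEB1 culture 2 (0.88, adjusted p = 0.146). Per length, ATP6V0A1 supplied 73.2% ± 0.869 of the a subunit RPKM with siNC and 74.5% ± 1.15 with siZEB1, and ATP6V0A2 supplied 25.9% ± 0.661 and 23.8% ± 0.725 (SD, n = 3 each). The share of ATP6V0A2 did not overlap between the groups, whereas that of ATP6V0A1 did.

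The small e subunit was the exception within the pump. ATP6V0E2 (ENSG00000171130, chr7:149872968-149891204), the less abundant of its pair of genes, had 21.8, 25.5 and 25.1 CPM with siNC and 17.7, 18.8 and 17.9 CPM with siZEB1. All siZEB1 cultures were below all controls, and it was the only V-ATPase gene called lower (log2 fold change -0.41, SE 0.089, adjusted p = 0.00133). ATP6V0E1 had 148, 150 and 158 CPM with siNC and 164, 180 and 154 CPM with siZEB1, with overlapping groups, and its change of 0.13 (SE 0.067) did not pass the test (adjusted p = 0.136). The share of ATP6V0E2 in the e subunit RPKM was 3.68% ± 0.264 with siNC and 2.57% ± 0.143 with siZEB1 (SD, n = 3 each), without overlap. Using the length of a single transcript in place of all exons gave 7.71% and 5.44%. Other annotated genes overlap 13.0% of the exonic bases of ATP6V0E2 on the opposite strand and 6.90% on the same strand.

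ATP6V0C, which encodes the main subunit of the proton ring, had 6, 9 and 8 reads with siNC and 9, 12 and 12 reads with siZEB1 and was not tested. In GENCODE 29, 72.1% of its exonic bases are shared on the same strand with AC093525.1 and AC093525.2. This pair of annotated genes is not listed in the count tables. How reads shared by 2 genes were counted is not given in the sources used here. The level of ATP6V0C is therefore uncertain, and the V0 sum above holds almost nothing of it. The accessory proteins ATP6AP1 and ATP6AP2, which help to assemble the pump, were at 144 ± 8.91 and 79.5 ± 2.89 CPM with siNC and at 149 ± 5.54 and 81.8 ± 5.0 CPM with siZEB1 (SD, n = 3 each). Neither passed the test (adjusted p = 0.571 and 0.664), and in both genes the groups overlapped.

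**Figure D4:**
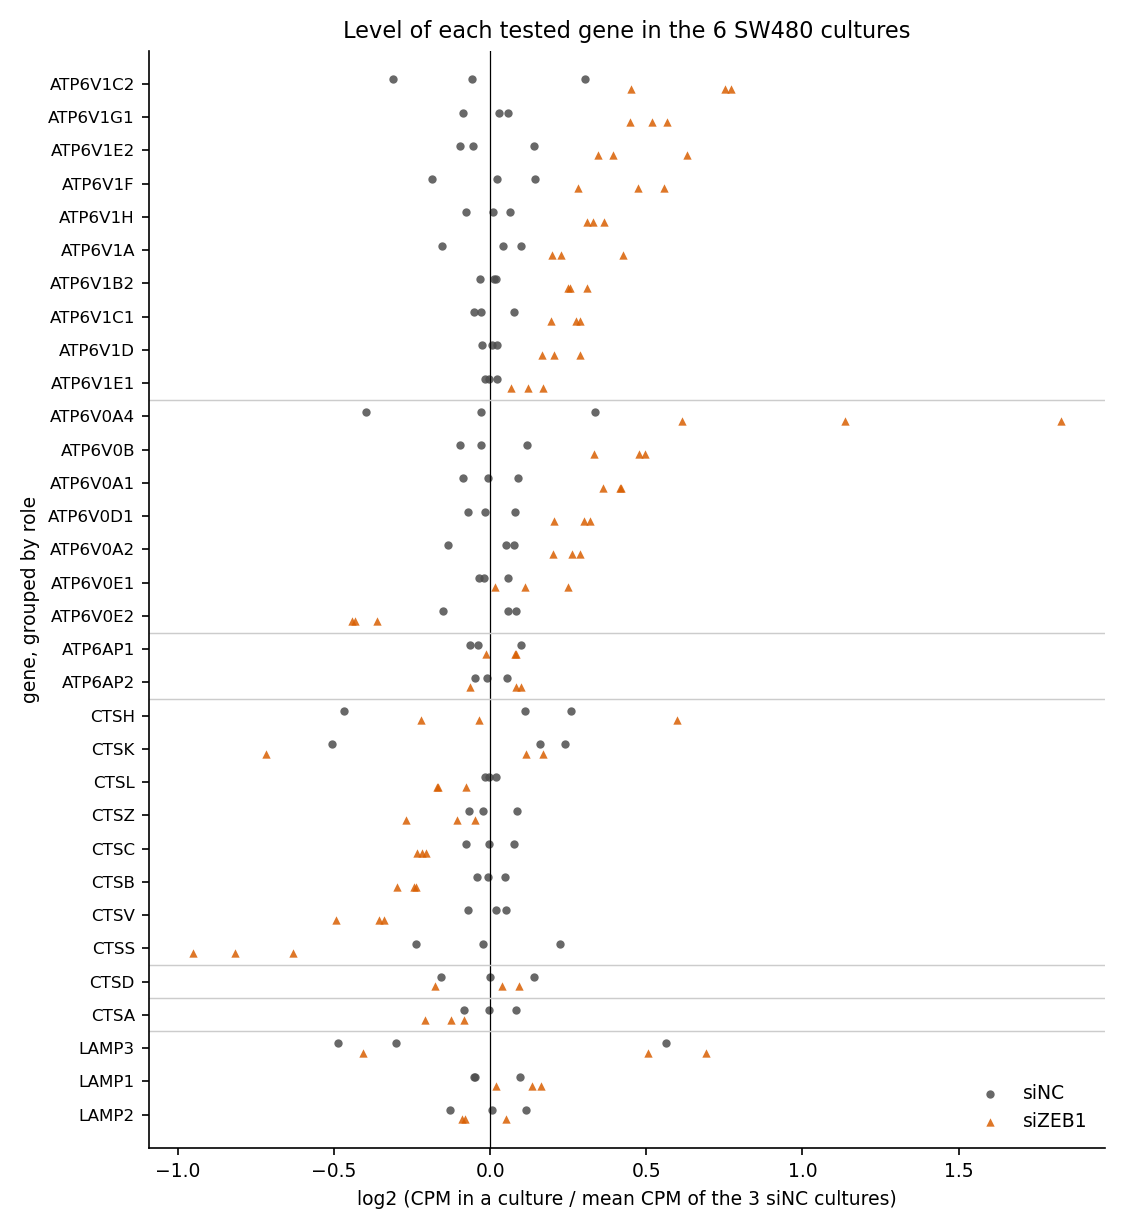
Level of each tested gene in each culture, as log2 of its CPM over the mean CPM of the 3 siNC cultures (x axis), with siNC as gray circles and siZEB1 as orange triangles. The triangles lie to the right of the circles for all V1 genes and to the left for ATP6V0E2, CTSB, CTSC, CTSL, CTSS and CTSV, and the 2 kinds of point are mixed for the LAMPs and accessory proteins.

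Of the 8 cysteine cathepsins tested, 4 were called lower and 4 were not called, where 21% of all genes tested were called lower. Among the 6 cathepsins of any class with a mean of 20 CPM or more, 2 were lower, against 25.1% of all genes at that level. CTSB (ENSG00000164733), an abundant endopeptidase and dipeptidase that tumours secrete, had 547, 561 and 582 CPM with siNC and 476, 478 and 458 CPM with siZEB1. The groups were well apart (log2 fold change -0.26, SE 0.052, adjusted p = 0.000681). CTSC, the dipeptidase that activates granule serine proteases, had 173, 164 and 156 CPM with siNC and 143, 142 and 140 CPM with siZEB1, and fell by 0.22 on the log2 scale (SE 0.061, adjusted p = 0.00804).

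CTSV (ENSG00000136943, chr9:97029679-97039643), a close relative of CTSL known from thymus and cornea, had 20.1, 20.5 and 18.9 CPM with siNC and 14.1, 15.5 and 15.7 CPM with siZEB1, and fell by 0.40 on the log2 scale (SE 0.090, adjusted p = 0.00192). CTSS (ENSG00000163131, chr1:150730196-150765957), the protease of antigen-presenting cells that processes the invariant chain of MHC class II, had 73, 91 and 57 reads with siNC and 34, 38 and 43 reads with siZEB1. Its level was 3.48 ± 0.556 CPM with siNC and 2.01 ± 0.225 CPM with siZEB1 (SD, n = 3 each), with no overlap, and it fell by 0.80 (SE 0.20, adjusted p = 0.00366), further than any other cathepsin. CTSS is also a macrophage gene, and the macrophage markers given above had few reads in both groups. Whether such cells have a part in the change of CTSS was not tested.

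CTSZ and CTSL, abundant cysteine cathepsins, were lower in the mean without passing the test. CTSZ had 266, 274 and 295 CPM with siNC and 259, 269 and 231 CPM with siZEB1, with overlapping groups (log2 fold change -0.14, SE 0.066, adjusted p = 0.106). CTSL had 68.1, 66.6 and 67.2 CPM with siNC and 59.9, 63.8 and 60.0 CPM with siZEB1, which did not overlap (-0.14, SE 0.065, adjusted p = 0.108). CTSH and CTSK, the latter known as the collagenase of osteoclasts, had 14 to 35 reads per culture, and their log2 fold changes of 0.16 (SE 0.33) and -0.082 (SE 0.30) cannot be told from 0 at this depth. CTSF and CTSW had at most 5 reads in any culture.

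CTSA, a serine carboxypeptidase that protects other lysosomal enzymes, had 135, 143 and 151 CPM with siNC and 131, 135 and 124 CPM with siZEB1. The siNC culture with the lowest level was matched by a siZEB1 culture, and the change of -0.14 (SE 0.065) did not pass the test (adjusted p = 0.101). CTSD, the main aspartic cathepsin, had 28.2, 31.4 and 34.6 CPM with siNC and 32.3, 33.5 and 27.8 CPM with siZEB1, and overlapped fully (log2 fold change -0.0098, SE 0.093, adjusted p = 0.945). The annotated gene AC068580.4 shares 41.7% of the exonic bases of CTSD on the same strand and had at most 2 reads in any culture, so the level of CTSD is uncertain in the same way. PLTP, NEURL2 and AL008726.1 on the opposite strand overlap 28.5% of CTSA. CTSE and CTSG, known from gastric cells and neutrophils, had 1 to 7 reads per culture.

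LAMP1 (ENSG00000185896, chr13:113297241-113323672) had 286, 287 and 317 CPM with siNC and 325, 332 and 300 CPM with siZEB1. Of the siNC cultures, 1 lay within the range of the siZEB1 cultures, and the log2 fold change of 0.11 (SE 0.061) did not pass the test (adjusted p = 0.177). Without siNC culture 3 it was 0.16 and passed (adjusted p = 0.0361). LAMP2, needed for fusion with autophagosomes and for chaperone-mediated autophagy, had 239, 221 and 202 CPM with siNC and 209, 207 and 229 CPM with siZEB1, which overlapped (-0.038, SE 0.068, adjusted p = 0.688). LAMP3, known from dendritic cells, had 33 to 72 reads per culture and a change of 0.36 that did not pass the test (SE 0.29, adjusted p = 0.348), and it was called only without siNC culture 3 (0.73, adjusted p = 0.0293).

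Compared per length, CTSZ was the most abundant of the 32 tested genes with siNC, at 137 RPKM over its annotated exons. Behind it came ATP6V0E1 (93.5 RPKM), ATP6V1G1 (86.3 RPKM), CTSB (75.8 RPKM) and LAMP1 (51.7 RPKM). The tested V-ATPase subunits ranged over a wide scale with siNC, from 0.0994 RPKM for ATP6V0A4 to 93.5 RPKM for ATP6V0E1. With siZEB1, ATP6V1G1 stood at 123 RPKM, beside 124 RPKM for CTSZ. These levels depend on the length chosen: with a single transcript per gene, CTSZ stayed first with siNC and CTSB came second.

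Length and base composition played no part in the choice by symbol. The 32 tested genes had a median of 4987 exonic bases against 4538 for the tested genes in GENCODE 29, and a median GC content of 46.9% against 49.1%. The 7-mer GAACACA, which was looked for because earlier results of these data had pointed to it, was present in the 3′UTR of 2 of the 32 genes (6.25%), against 12.4% of 12371 tested genes with a 3′UTR. Over all those genes the median log2 fold change was -0.21 with the 7-mer and 0.0085 without it. Because the 7-mer was picked from these same data, this difference is not independent of its choice, and 3′UTR length was not taken into account. The 2 of the 32 genes with the 7-mer were CTSC, with 1 site, which was lower, and ATP6V1C1, with 3 sites, which was higher. The other cathepsins called lower have 0 sites.

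The other lysosomal genes were read in 7 lists with 151 tested genes. Their counts are to be read beside all genes tested, of which 18.8% were called higher and 21% lower. At an unadjusted p under 0.05 these shares were 22.9% and 24.8%. Among hydrolases and their activators outside the cathepsins, 4 of 43 tested were called higher and 15 lower, with a median log2 fold change of -0.12. With 1 culture left out, 2 to 5 were called higher (2 without siNC culture 2, siZEB1 culture 1 or siZEB1 culture 2). In the same fits 10 to 14 were called lower (10 without siZEB1 culture 2). FUCA1, the lysosomal fucosidase, fell from 19.1 ± 0.566 to 11.5 ± 0.887 CPM (SD, n = 3 each; log2 fold change -0.73, SE 0.095, adjusted p = 9.28e-06). IDUA and ARSA, which degrade glycosaminoglycans and sulfatides, fell by 0.84 and 0.74 (adjusted p = 0.00692 and 0.000722). PPT1, which removes palmitate from proteins, rose from 145 ± 1.5 to 228 ± 4.27 CPM (SD, n = 3 each; 0.65, SE 0.056, adjusted p = 8.16e-08). HEXA, the alpha subunit of hexosaminidase, rose by 0.43 (adjusted p = 0.0175) and PPT2 by 0.24 (adjusted p = 0.0419). HEXA was not called without siNC culture 2 (adjusted p = 0.0805) or siZEB1 culture 1 (adjusted p = 0.0675), and PPT2 was not called without siNC culture 1 or 2 or siZEB1 culture 1 or 2, or by DESeq2 (adjusted p up to 0.202).

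Factors that assemble or regulate the V-ATPase were mostly not called. Of 13 tested, 3 were higher and 0 lower by edgeR's test, by DESeq2 and at an unadjusted p under 0.05, with a median of 0.064, and 1 was lower without siNC culture 3 or siZEB1 culture 3. NCOA7, a TLDc protein that binds the pump, rose by 0.65 (SE 0.094, adjusted p = 2.85e-05). TMEM9, which also binds it, rose by 0.43 (SE 0.074, adjusted p = 0.000166), and the assembly factor VMA21 by 0.21 (SE 0.071, adjusted p = 0.0275), a call lost without siNC culture 2, siZEB1 culture 2 or siZEB1 culture 3 (adjusted p up to 0.187). Of 16 genes that tag or sort lysosomal enzymes, 3 were higher and 0 lower by edgeR's test and by DESeq2 (median 0.15). The share called higher was close to the 18.8% of all genes tested. At an unadjusted p under 0.05, 7 were higher and 0 lower, and 5 were higher and 1 lower by edgeR's test without siNC culture 3. VPS26A of the retromer, which recycles sorting receptors, rose by 0.53, CLN8, an exporter of lysosomal enzymes from the endoplasmic reticulum, by 0.34, and the mannose 6-phosphate receptor M6PR by 0.18. M6PR was not called without siNC culture 3, siZEB1 culture 1 or siZEB1 culture 2 (adjusted p up to 0.0565).

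Of 22 other lysosomal membrane proteins, 3 were called higher and 5 lower (median -0.050), against 18.8% and 21% of all genes tested. TMEM192 rose from 19.8 ± 0.618 to 38.5 ± 2.17 CPM (SD, n = 3 each; 0.96, SE 0.08, adjusted p = 5.68e-08). MFSD8 rose by 0.50 and LAPTM4A by 0.17, the latter not called without siNC culture 2, siZEB1 culture 1 or siZEB1 culture 2 (adjusted p up to 0.154). The calcium and sodium channels TPCN1 and TPCN2 fell by 0.69 (adjusted p = 2.16e-06) and 0.45 (adjusted p = 0.0131), and LAPTM5, at 16 to 58 reads, by 1.07 (adjusted p = 0.0109). TPCN2 was not called without siZEB1 culture 2 (adjusted p = 0.0804), nor LAPTM5 without siNC culture 2 (adjusted p = 0.0815).

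The factors that act on the CLEAR element did not pass the test. TFEB had 8.64 ± 0.655 CPM with siNC and 8.79 ± 0.752 CPM with siZEB1 (SD, n = 3 each; log2 fold change 0.027, SE 0.12, adjusted p = 0.877). TFE3 was at 0.11 (SE 0.066, adjusted p = 0.193) and MITF at -0.051 (SE 0.19, adjusted p = 0.859). These are RNA levels, and the factors are known to be controlled through their place in the cell, which was not measured. In the list of these factors and the mTORC1 machinery at the lysosome, 5 of 20 genes were higher and 6 lower. Of all genes tested, 18.8% were higher and 21% lower. With 1 culture left out, 4 to 5 of the list were higher and 4 to 6 lower. The kinase MTOR fell by 0.68 (SE 0.067, adjusted p = 4.37e-07) and its partners MLST8 and RPTOR by 0.54 and 0.46. SLC38A9, LAMTOR4 and LAMTOR1, which recruit it to the lysosomal surface or sense amino acids there, rose by 0.46, 0.40 and 0.32. The rest of the list did not share a direction. LAMTOR2 (log2 fold change -0.34, adjusted p = 0.0153), RRAGA (-0.19, adjusted p = 0.0364) and FLCN (-0.44, adjusted p = 0.000164) were lower. RRAGC (0.29, adjusted p = 0.0156) and FNIP1 (0.25, adjusted p = 0.0152) were higher, and LAMTOR3 and LAMTOR5 were not called.

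Of 4 tested cystatins, the inhibitors of cysteine cathepsins, CST1 and CST7 were lower and 0 were higher by edgeR's test and by DESeq2 (1 at an unadjusted p under 0.05, and 1 by edgeR's test without siNC culture 3 or siZEB1 culture 3). CST1 had 151, 175 and 129 reads with siNC and 79, 95 and 64 with siZEB1 (log2 fold change -0.79, SE 0.15, adjusted p = 0.000497), and CST7 had 175, 242 and 231 reads with siNC and 149, 112 and 106 with siZEB1 (-0.69, SE 0.16, adjusted p = 0.00198). Of 33 autophagosome genes, 10 were called higher and 5 lower (median 0.084), against 18.8% and 21% of all genes tested. With 1 culture left out, 7 to 12 were called higher and 3 to 5 lower. WIPI2 rose by 0.86 (adjusted p = 1.86e-08), ATG4A by 0.51 and ATG4C by 0.37, and UVRAG fell by 1.03 (adjusted p = 2.19e-08), WIPI1 by 0.48 and ATG2A by 0.24. ATG4C was not called without siNC culture 2 or siZEB1 culture 2 (adjusted p up to 0.135), and ATG2A not without siNC culture 2 or 3 or siZEB1 culture 2 or 3 (adjusted p up to 0.114), fits in which 3 of the list were lower.

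**Figure D5:**
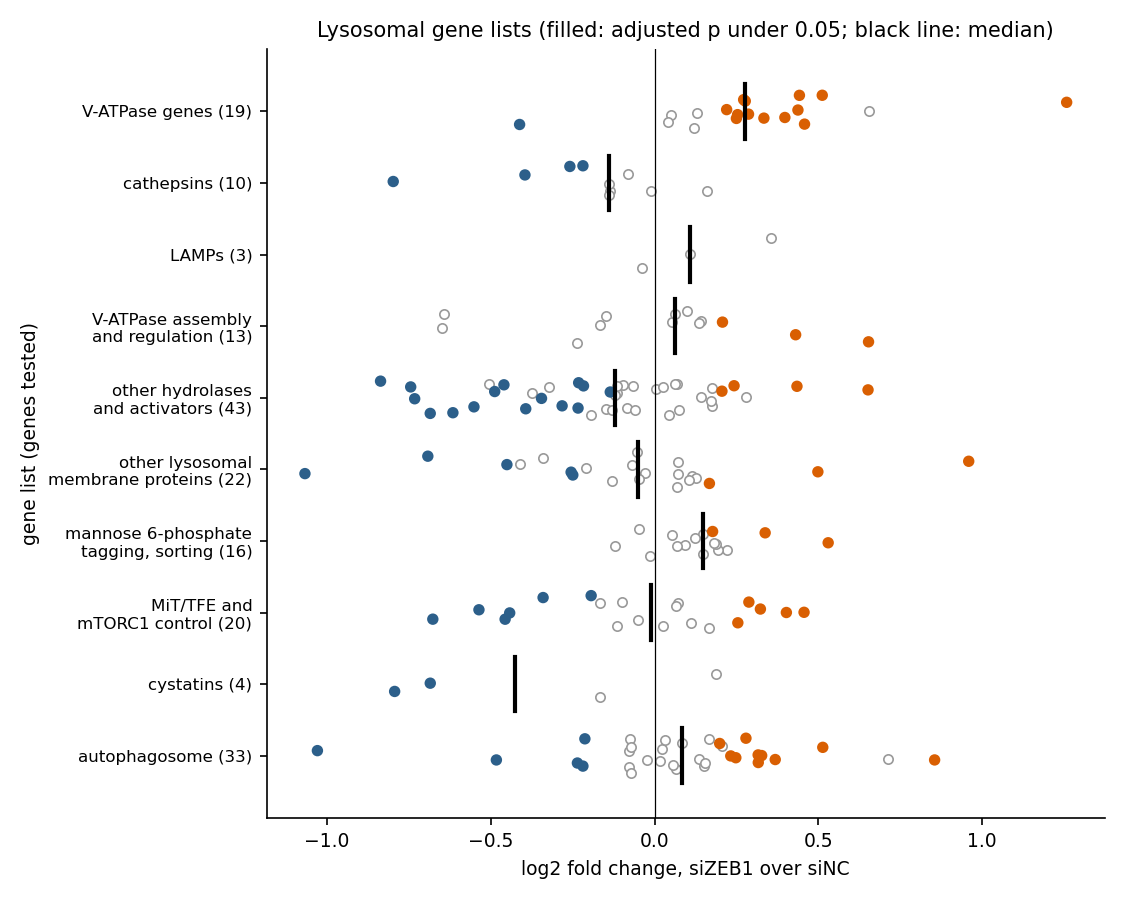
Log2 fold change of siZEB1 over siNC (x axis) for each tested gene of the V-ATPase, cathepsin and LAMP groups and of the 7 other lysosomal lists (y axis, number tested in parentheses), with genes called higher in orange, lower in blue and not called as open circles. The black line is the median, which lies at 0.28 for the V-ATPase genes, at -0.14 for the cathepsins and at -0.12 for the other hydrolases.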

How the data were processed

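The submitters' processing notes name Trimmomatic, HISAT2, SAMtools, featureCounts and hg38, without versions or order, and the annotation and the strand setting are not given in the sources used here. The authors deposited raw counts of reads per Ensembl gene, 1 table per culture. Genes with 10 or more reads in at least 3 of 6 cultures (15187) were normalized by TMM and tested two-sided with edgeR 4.0.16 (quasi-likelihood, R 4.3.3, Benjamini-Hochberg over all genes tested, called at adjusted p under 0.05). RPKM used the exon union of each Ensembl gene in GENCODE 29 (GRCh38). The biological coefficient of variation was 6.58%. On simulated data with 200 of 15187 genes changed, the test recovered 42% at a fold of 1.25 and 88% at 1.5, and 4.91% of calls were false. In the data 39.8% of genes were called, a far larger share than was changed in the simulation, so these rates need not hold there. Genes named are all 39, ZEB1, TFEB, TFE3, MITF and, per list, up to 3 called genes with the largest rise and fall. Further members of the mTORC1 list and some marker genes are also named. The genes and lists were chosen with earlier results of these data known. Alternatives were DESeq2 1.42.0, other scalings, other filters, the replicate block, each culture left out and fold thresholds. Protein sequences were not used here.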

Additional observations from a re-analysis of the deposited data

How the results depend on the processing

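Of the 18 genes called among the 32, 14 kept their call in each of the 13 alternative fits. The exceptions were ATP6V0A4, ATP6V1E2 and ATP6V0A2, given above, and CTSC with the replicate block (adjusted p = 0.055), in which ATP6V0A2 was also lost (adjusted p = 0.0533). ATP6V0E1 was gained without siZEB1 culture 3 (adjusted p = 0.0425), beside LAMP1 and LAMP3 without siNC culture 3. The replicate numbers did not pair the cultures (correlations of same-numbered cultures of -0.047, -0.086 and -0.19), and with the replicate block 12 of the 32 were called higher and 4 lower, and 2299 and 2679 of all genes. With each culture left out in turn, 12 to 14 of the 32 were called higher and 5 lower, 12 to 14 V-ATPase genes higher and 1 lower, and 4 cathepsins lower and 0 higher. A fold above 1.5 with an unadjusted p under 0.05 left 2 of the 32 higher, both V-ATPase genes (ATP6V0A4 and ATP6V1C2), and 1 lower, the cathepsin CTSS, with 0 V-ATPase genes lower. At an unadjusted p under 0.001, 0 of the 32 were higher, V-ATPase genes included, and 1, CTSS, was lower. By these rules 1088 and 680 of all genes tested were higher (7.16% and 4.48%) and 1423 and 1004 lower (9.37% and 6.61%), and in the 7 lists 5 and 4 genes were higher and 11 and 8 lower. Log2 fold changes near 0 changed sign in fits without 1 culture: LAMP2 ranged from -0.098 to 0.022, CTSH from -0.12 to 0.32, CTSD from -0.082 to 0.067, CTSK from -0.29 to 0.15, TFEB from -0.022 to 0.095 and MITF from -0.22 to 0.062, none of them called. Scaling by median-of-ratios factors or by library size shifted the median of all genes by 0.0079 and -0.0088. Genes under about 100 reads per culture, ATP6V0A4, ATP6V1C2, CTSH, CTSK, CTSS and LAMP3, rest on wide standard errors.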
